A study of Mus musculus with 58 samples.

Results

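Type I interferon response genes are the genes that cells switch on when an interferon of the alpha or beta kind binds its receptor. A list of 42 such mouse genes was followed here through 58 liver cell libraries, and all 42 were found by symbol among the 25307 genes of the deposited table. The list holds transcription factors of the pathway, antiviral effectors, sensors of foreign or misplaced nucleic acid, and regulators whose genes respond to interferon in many cell types. A gene was described singly where 3 or more libraries held a normalized count of 10 or more, which applied to 31 genes, and the other 11 (Ifit1, Ifit2, Ifit3, Ifit3b, Oas1a, Oas2, Oas3, Oasl1, Usp18, Cmpk2 and Dhx58) are given as a sum.

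In the pathway, interferons alpha and beta bind the receptor made of Ifnar1 and Ifnar2, and the kinases Jak1 and Tyk2 then phosphorylate Stat2. Stat2 acts with Irf9 in a complex that enters the nucleus and binds interferon-stimulated response elements in promoters, and Irf7, itself induced, adds to the production of further interferon. Liver macrophages and monocytes meet gut-derived microbial products in portal blood, which can start interferon production through Toll-like and cytosolic receptors.

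Messenger RNA was measured in Kupffer cells (KC, the resident macrophages of the liver), monocyte-derived macrophages (MoMF) and monocytes (Mo), all isolated from livers of 129SV mice. The injury groups were CBDL2w (common bile duct ligation for 2 weeks, the onset of cholestatic injury), CBDL6w (ligation for 6 weeks, advanced cholestatic injury), DSS (acute colitis alone), CBDL+DSS (advanced cholestatic injury to which acute colitis was added as the second hit) and the controls, Sham6w. Each of the 15 groups had 4 libraries, except that Sham6w had 3 each for MoMF and Mo. Some replicates were pooled according to the design text, and the labels of 9 libraries join 2 or 3 replicate numbers. The labels give no time for DSS or CBDL+DSS, no sorting gate, no sex and no age. The controls were taken at 6 weeks, and the comparison of CBDL2w with them therefore spans a difference in time too.

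Recovered read totals were 228741 to 521954 in KC, 118687 to 461071 in MoMF and 235531 to 377725 in Mo. The MoMF Sham6w library of replicates 1+2+5 was the shallowest of all and had the fewest detected genes, 8885, so results that rest on it are given with and without it. Of 7 Kupffer cell markers, all 7 were detected in every KC group, and they took 0.179 to 0.61% of the reads in KC libraries, at most 0.196% in MoMF and at most 0.0803% in Mo. Of 7 classical monocyte markers all were detected in Mo, where they took 0.512 to 1.06% of the reads. Levels below are normalized counts per library. Differences are log2 values with their standard error from a limma fit on log2(normalized count + 1), which understates changes of low genes, and a gene is said to rise or fall at a Benjamini-Hochberg adjusted p under 0.05 over all genes tested. The p-values reflect no more than the spread of these libraries, since the labels do not say whether replicates were separate animals. In such bulk samples, fewer cells of a type and less RNA per cell cannot be told apart.

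To show the regulatory sequence behind the list, the core of the interferon-stimulated response element, TTTCNNTTTC on either strand, was searched in RefSeq promoter windows of GRCm38.p6, which run from 250 bases before to 50 bases after a gene's start. Of the 42 genes, 33 had a window, and 17 of these 33 (51.5%) held at least 1 match, against 1079 of 27025 genes with a window (3.99%). The genes that changed in at least 3 of the 21 comparisons between injury groups were Ifi203, Rsad2, Bst2, Isg15, Ifi44, Rtp4 and Slfn2. Of these, the first 4 held matches, and they are shown as the repeatedly called genes whose window held a match. Each sequence is printed 5′ to 3′ along the gene's own strand, which is the minus strand for all 4, and the capitals mark the matches.
Ifi203: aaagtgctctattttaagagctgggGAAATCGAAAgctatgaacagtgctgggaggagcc
Rsad2: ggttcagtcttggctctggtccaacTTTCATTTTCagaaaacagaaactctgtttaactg
Bst2: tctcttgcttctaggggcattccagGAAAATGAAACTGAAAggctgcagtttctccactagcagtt
Isg15: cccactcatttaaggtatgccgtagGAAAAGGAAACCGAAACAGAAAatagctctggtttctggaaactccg
The Ifi203 stretch is chr1:173942493-173942552, the Rsad2 stretch chr12:26456538-26456597, the Bst2 stretch chr8:71537562-71537627 and the Isg15 stretch chr4:156200850-156200921. Bst2 held 2 overlapping matches and Isg15 held 3, and Ifi203 and Rsad2 held 1 each. The Ifi203 match came from the window chr1:173942443-173942742, and its stretch lies inside the GENCODE span of the gene. Another Ifi203 window, chr1:173942623-173942922, which takes in the GENCODE start, held no match. Ifi44 and Slfn2 had a window in which these letters were not found. A match describes the letters of the window and is not a measured binding site.

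Ifi203 (ENSMUSG00000039997, chromosome 1, 173920407 to 173942672) encodes a DNA-binding protein of the interferon-inducible p200 family, whose genes lie side by side and are so alike that reads may be split between them. Rsad2 (ENSMUSG00000020641, chromosome 12, 26442746 to 26456452) encodes viperin, an antiviral radical enzyme. Bst2 (ENSMUSG00000046718, chromosome 8, 71534255 to 71537456) encodes tetherin, a surface protein that holds budding virus at the membrane and that also marks plasmacytoid dendritic cells. Isg15 (ENSMUSG00000035692, chromosome 4, 156199424 to 156200818) encodes a ubiquitin-like protein that is attached to other proteins. These positions are those of GENCODE M21 on GRCm38.

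Across the injuries, the 42 genes together stood lowest in ligated livers with colitis and highest in controls in both KC and Mo. Their summed level averaged 685.2 ± 76.0 in KC after CBDL+DSS, 790.5 ± 47 after CBDL2w, 932.2 ± 54.2 after CBDL6w and 1044 ± 171 after DSS, against 1400 ± 210 in Sham6w (SD, n = 4 each). In Mo the sums averaged 414.2 ± 59.2 after CBDL+DSS, 614.2 ± 72.7 after CBDL2w, 701.9 ± 56.4 after CBDL6w and 1065 ± 240 after DSS (n = 4 each), against 1173 ± 132 in Sham6w (n = 3). The sums of all ligated KC and Mo libraries lay below those of every Sham6w library of the same cell type, and those of DSS overlapped them. In MoMF the sums averaged 590.5 ± 88.2 after CBDL2w, 612.8 ± 141 after CBDL6w, 806.9 ± 118 after DSS and 553.3 ± 161 after CBDL+DSS (n = 4 each), against 769.2 ± 111 in Sham6w (n = 3). The MoMF sums after CBDL+DSS, 320.7 to 679.8, lay below the 681.1 to 894 of Sham6w, the lowest of which came from the shallow library, and those of CBDL2w, CBDL6w and DSS overlapped them. Without that library the MoMF controls held 732.5 and 894, and every ligated MoMF library lay below them, at 711.7 or less. Ifi203 has the highest counts of the genes and weighs heavily in these sums, which carry no test. Without Ifi203 and Bst2, a sum chosen after the data were seen, the ligated Mo libraries held 276.2 to 557.9 against 679.1 to 894.7 in Sham6w, still without overlap, and the ligated KC libraries held 398.7 to 584.2 against 662.3 to 929.4.

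**Figure D1:**
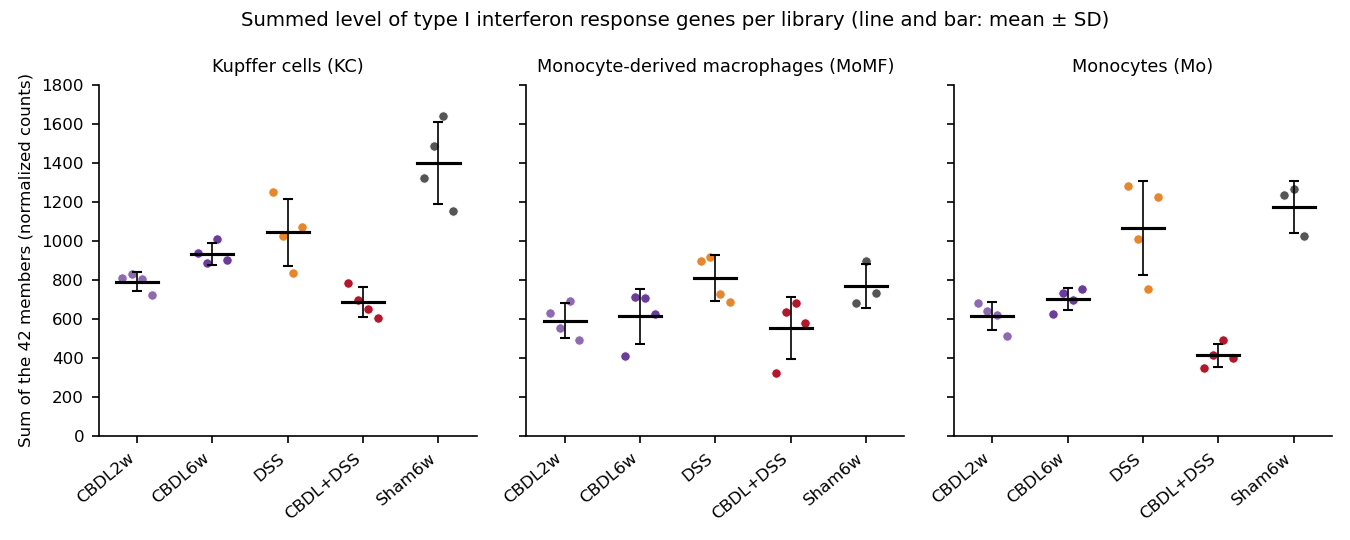
Summed normalized count of the 42 genes in each library (vertical axis) by injury group (horizontal axis), with 1 panel per cell type, points for libraries, lines for group means and bars for the SD. In KC and Mo all points of the 3 ligated groups lie below the Sham6w points, and in MoMF those of CBDL+DSS do, while the other injury groups overlap with Sham6w.

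The question the study put first was how each injury differs from the controls within a cell type. The widest change was that of Mo after CBDL+DSS, where 11 of the 29 genes tested fell and none rose, against 6.07% of all 6112 genes tested that fell. The median difference was -1.08 for the 29 genes and -0.07 for all genes tested, and none of the 29 differences was positive. Genes tested were those that reached the value of 10 in at least 3 libraries of a cell type, which a gene can pass through the group in which it is high, so these medians describe only the genes that passed.

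Among the transcription factors in Mo, Stat2, a signal transducer of the type I interferon receptor, stood at 0, 7.16, 1.54 and 0.904 after CBDL+DSS, against 15.7, 14.5 and 22.4 in Sham6w. It fell by 2.86 ± 0.60 on the log2 scale (7.27-fold lower, adjusted p = 0.00313). Irf7, the inducible interferon regulatory factor, stood at 3.15, 11.2, 10.8 and 7.23 after CBDL+DSS, against 63, 59.2 and 21.3 in Sham6w. Neither gene had a CBDL+DSS library that reached the lowest control. Irf7 fell by 2.39 ± 0.51 (adjusted p = 0.00364), whereas Irf9, the DNA-binding subunit of the complex that holds Stat2, did not pass, at 29.5 on average against 51.6.

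Bst2 showed the largest fall of the list in Mo. It stood at 2.1, 6.14, 7.72 and 5.42 after CBDL+DSS, at 3.28, 7.21, 12.3 and 5.07 after CBDL2w and at 7.68, 8.34, 9.94 and 8.84 after CBDL6w, against 30.2, 54.3 and 71.6 in Sham6w. Every ligated library was below the lowest control, while the DSS libraries, at 42.7, 51.5, 28.2 and 73.5, lay within or near the control range. The falls were 3.08 ± 0.44 after CBDL+DSS (8.43-fold lower, adjusted p = 0.000101), 2.78 ± 0.44 after CBDL2w (6.85-fold lower, adjusted p = 0.000176) and 2.37 ± 0.44 after CBDL6w (5.18-fold lower, adjusted p = 0.000988).

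Of the antiviral effectors in Mo, Isg15 stood at 7.35, 5.12, 15.4 and 6.33 after CBDL+DSS, at 16.4, 10.8, 20.3 and 16.5 after CBDL2w and at 13.4, 22.9, 9.11 and 30.3 after CBDL6w, against 43.3, 53.1 and 34.7 in Sham6w. Isg15 was below all controls in each ligated library and fell by 2.32 after CBDL+DSS, 1.41 after CBDL2w and 1.28 after CBDL6w (adjusted p = 0.000733, 0.0214 and 0.0432). Rsad2 stood at 7.35, 4.09, 13.9 and 11.8 after CBDL+DSS, at 18.9, 6.31, 5.28 and 5.07 after CBDL2w and at 5.76, 9.38, 6.63 and 8.84 after CBDL6w, against 35.4, 42.2 and 19 in Sham6w. It fell by 1.74, 1.87 and 1.89 in these 3 groups (adjusted p = 0.032, 0.0179 and 0.0205), and its highest CBDL2w library came close to the lowest control. Ifi44, an interferon-induced antiviral protein, stood at 6.3, 6.14, 8.49 and 9.94 after CBDL+DSS and at 12.3, 9.01, 8.81 and 3.8 after CBDL2w, against 24.9, 24.1 and 31.3 in Sham6w. It fell by 1.69 after CBDL+DSS and 1.63 after CBDL2w (adjusted p = 0.00435 and 0.00412), but in CBDL6w its libraries, at 15.4, 25, 24.9 and 16.4, overlapped the controls and no call was made.

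Among sensors and DNA-binding proteins in Mo, Ifi203 stood at 72.5, 71.6, 130 and 74.1 after CBDL+DSS and at 154, 150, 118 and 190 after CBDL2w, against 307, 438 and 272 in Sham6w. It fell by 1.97 ± 0.25 after CBDL+DSS (3.91-fold lower, adjusted p = 9.21e-05) and by 1.13 ± 0.25 after CBDL2w (adjusted p = 0.00311), with no overlap in either. The CBDL6w libraries, at 177 to 218, were also below all controls for Ifi203, without a call. Ifih1, the cytosolic sensor MDA5 of long double-stranded RNA, fell by 1.89 after CBDL+DSS (adjusted p = 0.0454), at 1.05, 4.09, 0.772 and 1.81 against 11.8, 4.83 and 12.3 in Sham6w. Sp100, a nuclear body protein, fell by 1.31 after CBDL+DSS, Slfn5, a Schlafen family protein, by 1.17, and Slfn2, a Schlafen protein that protects transfer RNA, by 0.75. Slfn5 stood at 44.1, 40.9, 44.8 and 41.6 after CBDL+DSS against 105, 85.7 and 103 in Sham6w, and it also fell by 0.65 after CBDL2w (adjusted p = 0.0427). The Schlafen genes lie in a cluster of close relatives, so their reads may be shared.

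In all, 6 of the 29 genes fell in Mo after CBDL2w (5.71% of all genes tested fell) and 3 fell after CBDL6w (5.33%), with medians of -0.86 and -0.61 against -0.10 and -0.11 for all genes, and none rose. These comparisons share the 3 Sham6w libraries, and the counts leaned on single libraries. The count after CBDL+DSS was 7 without the CBDL+DSS library of replicate 1 or without the Sham6w library of replicates 1+2+5, the count after CBDL2w was 3 without the Sham6w library of replicates 1+2+5 or that of 3+6, and the count after CBDL6w was 1 without the CBDL6w library of replicate 1 or the Sham6w library of replicates 1+2+5. Calls held in every fit with a library left out for Stat2, Irf7, Isg15, Ifi44, Ifi203, Slfn5 and Bst2 after CBDL+DSS, for Ifi44, Ifi203 and Bst2 after CBDL2w, and for Bst2 after CBDL6w. Sp100 and Slfn2 after CBDL+DSS lost the call whichever library was left out.

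**Figure D2:**
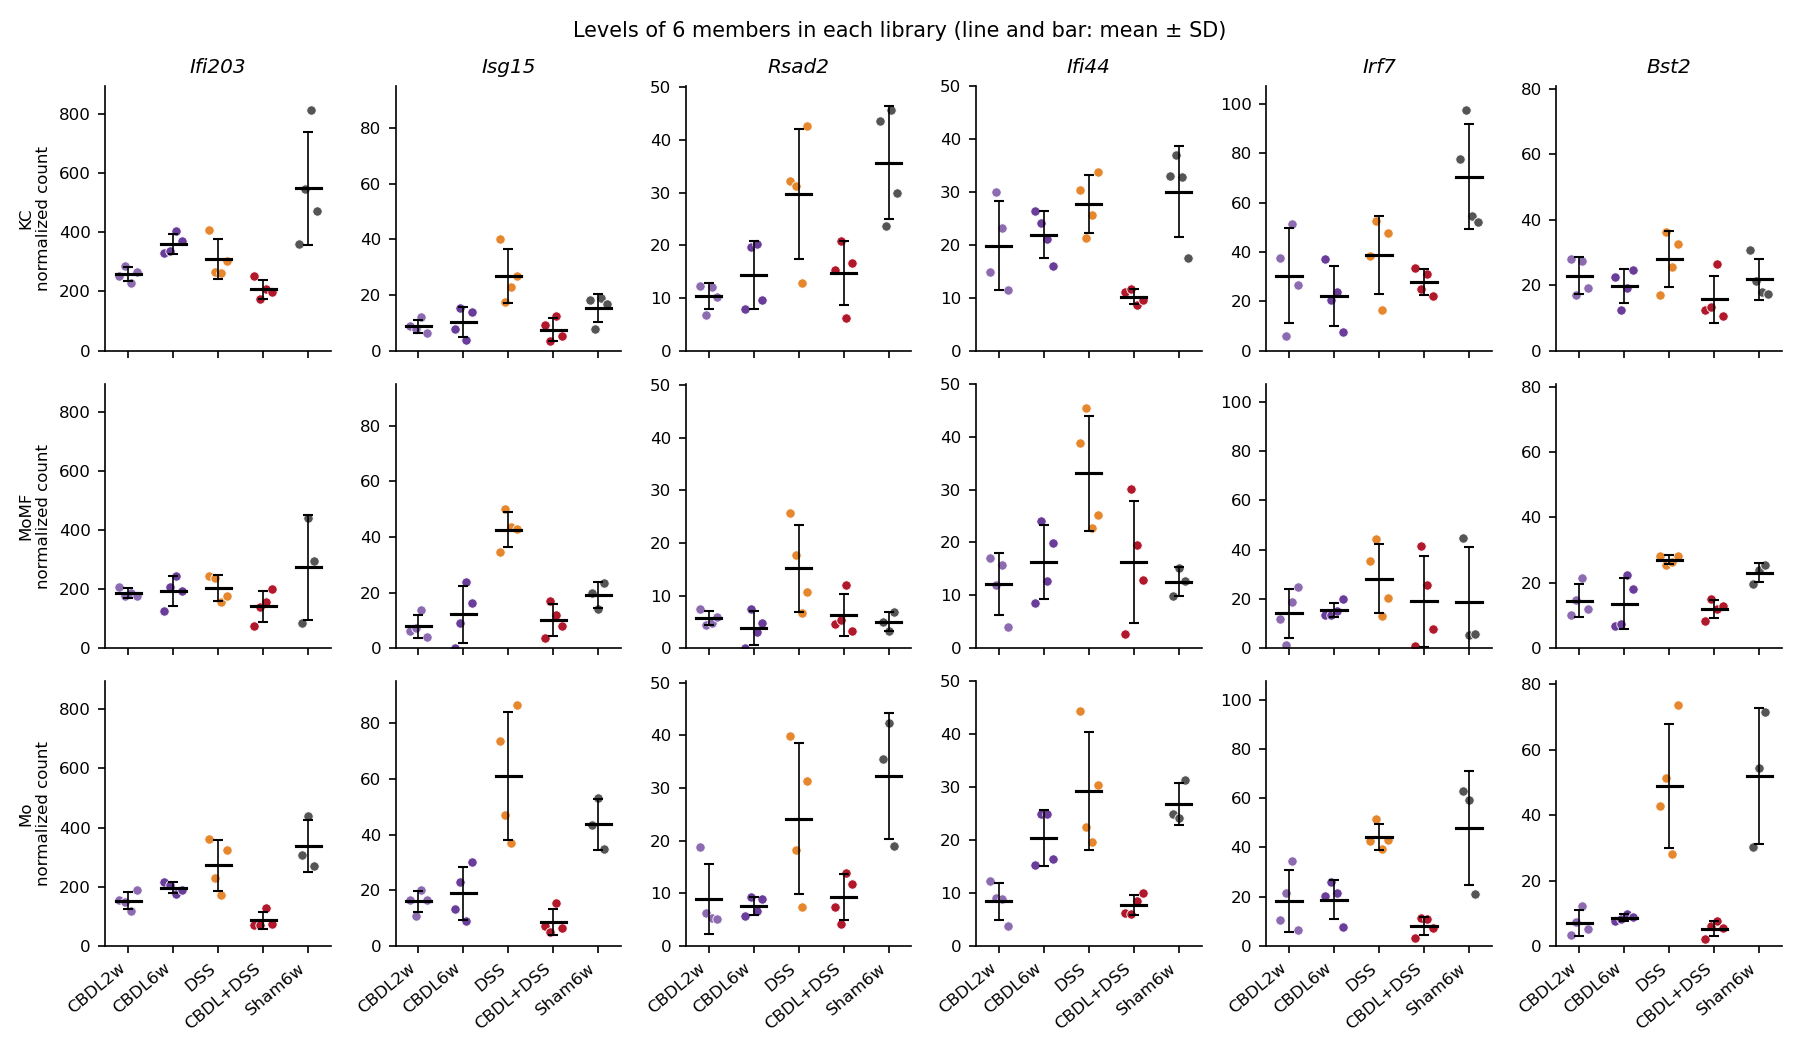
Normalized counts per library (vertical axis) of Ifi203, Isg15, Rsad2, Ifi44, Irf7 and Bst2 by injury group (horizontal axis) in the 3 cell types, with a point per library. In Mo the CBDL+DSS points of all 6 genes lie below the Sham6w points, and for Bst2, Isg15, Rsad2 and Ifi203 so do those of CBDL2w and CBDL6w.

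Markers of other cells moved with these falls in Mo. Of the plasmacytoid dendritic cell markers, the 6 other than Bst2 took 0.0312 to 0.0805% of the Mo reads after CBDL+DSS (Cox6a2 at 0), 0.0326 to 0.0574% after CBDL2w (Klk1 at 0), 0.0565 to 0.072% after CBDL6w (Ccr9 and Klk1 at 0) and 0.096 to 0.156% after DSS, against 0.16 to 0.221% in Sham6w. Their defining marker Siglech stood at 0 to 4.52 after CBDL+DSS, 0 to 4.4 after CBDL2w, 0 to 7.57 after CBDL6w and 31.9 to 81.8 after DSS, against 47.2 to 91.8 in Sham6w. The 12 liver endothelial markers took 0.0178 to 0.0283% after CBDL+DSS, 0.0111 to 0.0165% after CBDL2w, 0.01 to 0.0297% after CBDL6w (Oit3 at 0) and 0.147 to 0.32% after DSS, against 0.224 to 0.389% in Sham6w. The 6 patrolling monocyte markers were below every control library in each ligated group and in DSS, at 0.103 to 0.188% against 0.192 to 0.206%, and the 7 classical monocyte markers were above every control in the ligated groups, at 0.786 to 1.06% against 0.512 to 0.653%. Markers of B cells and of T and NK cells were also below every control in the ligated groups, at no more than 0.00875% and 0.00711% against at least 0.019% and 0.0101%. Some markers of both lists were at 0 in each ligated group. The part of these cells in the falls of Bst2 and the other genes was not tested.

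**Figure D3:**
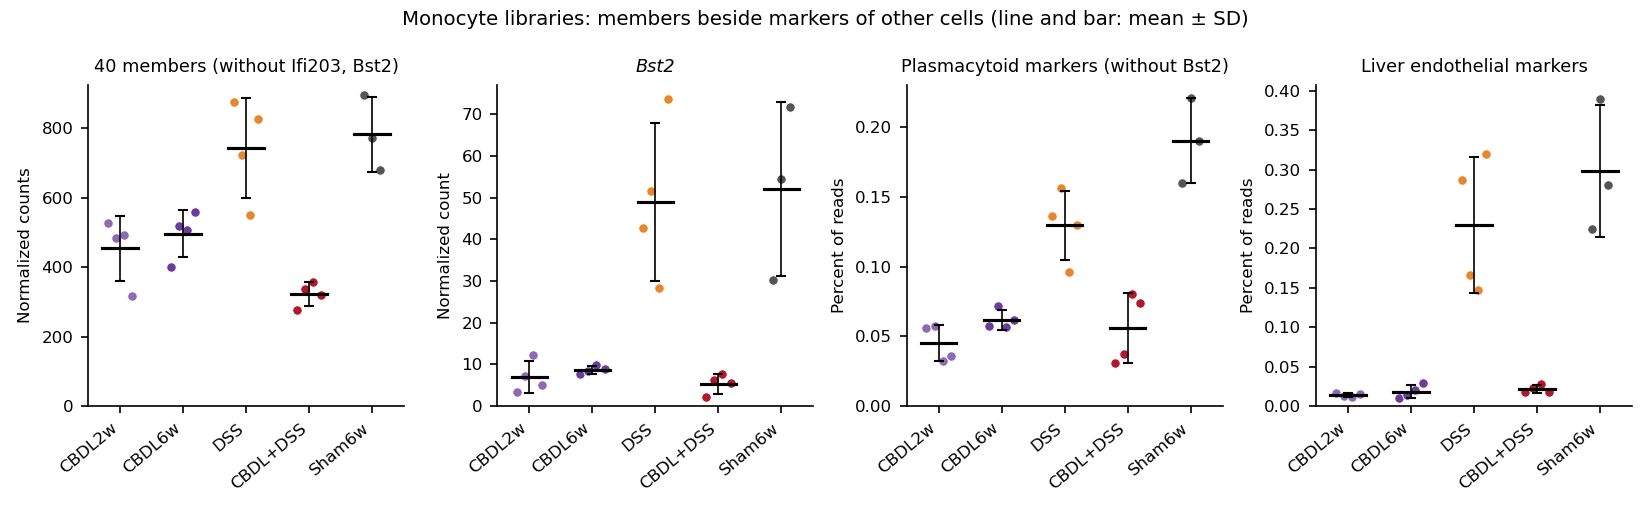
Mo libraries by injury group (horizontal axis), with panels for the summed normalized count of the 40 genes other than Ifi203 and Bst2, the normalized count of Bst2, and the percentage of reads in plasmacytoid dendritic cell markers without Bst2 and in liver endothelial markers. In all 4 panels every point of the 3 ligated groups lies below every Sham6w point.

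In KC fewer of the genes passed. After CBDL+DSS 4 of 29 fell, against 1.7% of all 6159 genes tested that fell, with a median difference of -0.77 for the 29 genes and 0.02 for all genes. Ifi27l2a, a small interferon-induced membrane protein, stood at 5.57, 4.15, 5.44 and 3.58, against 24.5, 24.2, 18.9 and 16.6 in Sham6w. It fell by 1.95 ± 0.36 (3.87-fold lower, adjusted p = 0.00188), and its highest CBDL+DSS library was far under its lowest control. Ifi44 stood at 11.2, 11.6, 8.55 and 9.55 against 33, 37, 32.8 and 17.4 and fell by 1.43 ± 0.30 (adjusted p = 0.00807). Rtp4, a chaperone of receptor proteins with antiviral activity, stood at 46.7, 41.5, 37.3 and 45.4 against 134, 139, 139 and 60.6 and fell by 1.38 ± 0.26 (adjusted p = 0.00297). Ifi203 stood at 251, 174, 208 and 197 against 362, 545, 813 and 473 and fell by 1.35 ± 0.19 (adjusted p = 9.07e-05). For none of these 4 genes did the groups overlap, and the 4 calls held in every fit with a library left out.

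After CBDL2w 3 of the 29 genes fell in KC (1.62% of all genes tested fell). Rsad2 stood at 12.2, 6.87, 12 and 10.2 against 43.6, 23.6, 45.7 and 29.9 in Sham6w and fell by 1.68 ± 0.40 (3.2-fold lower, adjusted p = 0.0198). Ifi203, at 251, 286, 229 and 267 and below all controls, fell by 1.03 ± 0.19 (2.04-fold lower, adjusted p = 0.00318). Rtp4 stood at 47, 61.8, 54.1 and 43.8 and fell by 1.11 ± 0.26 (adjusted p = 0.0192), with 1 library overlapping the lowest control. The count was 1 without the Sham6w library of replicate 1 or of replicate 3, and the Ifi203 call held without each library.

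After CBDL6w only Rtp4 of the 29 genes passed in KC (2.03% of all genes tested fell), at 71.4, 35.9, 71 and 57.6, and it fell by 0.96 ± 0.26 (adjusted p = 0.0429) with overlap. The next largest differences were -1.76 for Irf7 (adjusted p = 0.0518), -1.52 for Xaf1, an interferon-induced promoter of apoptosis, and -1.40 for Ddx60, a helicase of RNA sensing, none of which passed. Irf7 stood at 37, 20.6, 24 and 7.47 after CBDL6w against 77.7, 97.6, 54.6 and 52.3 in Sham6w, without overlap. The count was 2 without the CBDL6w library of replicate 1 or 3 and 0 without the CBDL6w library of replicate 4 or the Sham6w library of replicate 2 or 3. The median differences of the 29 genes were -0.59 after CBDL2w and -0.55 after CBDL6w, against -0.03 and -0.06 for all genes.

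Other markers moved in KC as well. The 7 Kupffer cell markers were below every control in all 4 injuries, at 0.413 to 0.537% after CBDL+DSS, 0.244 to 0.373% after CBDL2w, 0.179 to 0.361% after CBDL6w and 0.423 to 0.483% after DSS, against 0.559 to 0.61% in Sham6w. The 7 classical monocyte markers were above every control after CBDL2w, CBDL6w and DSS, at 0.104 to 0.18%, 0.0534 to 0.164% and 0.0402 to 0.0953%, and overlapped after CBDL+DSS, at 0.0246 to 0.0664%, against 0.0195 to 0.0305% in Sham6w. The 12 endothelial markers were below every control after CBDL6w, at 0.0243 to 0.0271% against 0.0333 to 0.0637%, and overlapped after the other injuries, as the plasmacytoid markers did after all. Macrophage markers were below every control after DSS, at 0.434 to 0.492% against 0.637 to 0.706%. Hepatocyte markers were below after CBDL2w, at 0.0392 to 0.0532% (Mup3 and Cyp2e1 at 0) against 0.0605 to 0.108%. T and NK cell markers were above every control after CBDL6w, at 0.00131 to 0.00395% (Cd3g, Trac, Nkg7 and Ncr1 at 0) against 0 to 0.00105% (Cd3g, Trac, Nkg7, Klrd1 and Il7r at 0). These T and NK cell shares rest on very few reads. The part of these cells in the changes of the interferon genes was not tested.

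In MoMF 1 gene of the list passed over the 3 ligated groups. None of the 27 genes tested passed after CBDL2w (3.06% of all 6079 genes passed in either direction) or after CBDL6w (1.22%) by limma, and edgeR called none. An unadjusted p under 0.05 was found for 0 and 3 of the 27 genes, against 1146 and 908 of all 6079. The largest differences after CBDL2w were -1.27 for Isg15, -1.04 for Samd9l, an interferon-induced growth and virus restriction factor, and 0.85 for Pnpt1, a ribonuclease. After CBDL6w they were -1.29 for Isg15, -1.22 for Rtp4 and -1.03 for Trim25, a ubiquitin ligase of RNA sensing. Isg15 stood at 6.3, 7.46, 13.7 and 3.98 after CBDL2w and at 0, 9.05, 23.9 and 16.1 after CBDL6w, against 19.8, 14.1 and 23.6 in Sham6w. After CBDL+DSS only Phf11b fell (5.2% of all genes fell), a PHD finger protein with near-identical neighbours, at 3.68, 7.09, 6.03 and 8.82 against 27.2, 16.3 and 13.8. Its difference was -1.43 ± 0.43 (adjusted p = 0.0357), and the call was lost without the CBDL+DSS library of replicate 1, 2 or 3 or the shallow Sham6w library. Without the shallow library the 3 counts were still 0, 0 and 1, but another gene of the list made up the 1. Classical monocyte markers in MoMF were above every control in all 4 injuries, at 0.157 to 0.477% against 0.0806 to 0.131%. Plasmacytoid markers other than Bst2 were below every control after CBDL2w, at 0.0466 to 0.0772% (Klk1 and Ly6d at 0), and after CBDL+DSS, at 0.0544 to 0.0752% (Ccr9, Cox6a2, Klk1 and Ly6d at 0), against 0.0784 to 0.108% in Sham6w (Klk1 at 0). Their defining marker Siglech overlapped the controls, at 0 to 5.67 after CBDL2w and 0 to 6.2 after CBDL+DSS, against 0 to 13.8. These shares alone therefore do not show a change in plasmacytoid cells. Endothelial markers were below after CBDL2w and CBDL6w, at 0.00772 to 0.0191% against 0.0278 to 0.0536%, and patrolling monocyte markers after CBDL2w and CBDL+DSS, at 0.124 to 0.158% and 0.0783 to 0.0935% against 0.161 to 0.203%. B cell markers were below in all 3 ligated groups, at 0.0114% or less against at least 0.0219%, and T and NK cell markers after CBDL2w and CBDL+DSS, at 0.0123% or less against at least 0.0126%. Some markers of both lists were at 0 in each ligated group. Kupffer cell markers were below after CBDL2w, at 0.0144 to 0.0435% against 0.0548 to 0.196%, conventional dendritic cell markers after CBDL+DSS, at 0.0021% or less against at least 0.0059%, and macrophage markers above after CBDL+DSS, at 0.446 to 0.561% against 0.294 to 0.331%. The part of these cells in the values was not tested.

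**Figure D4:**
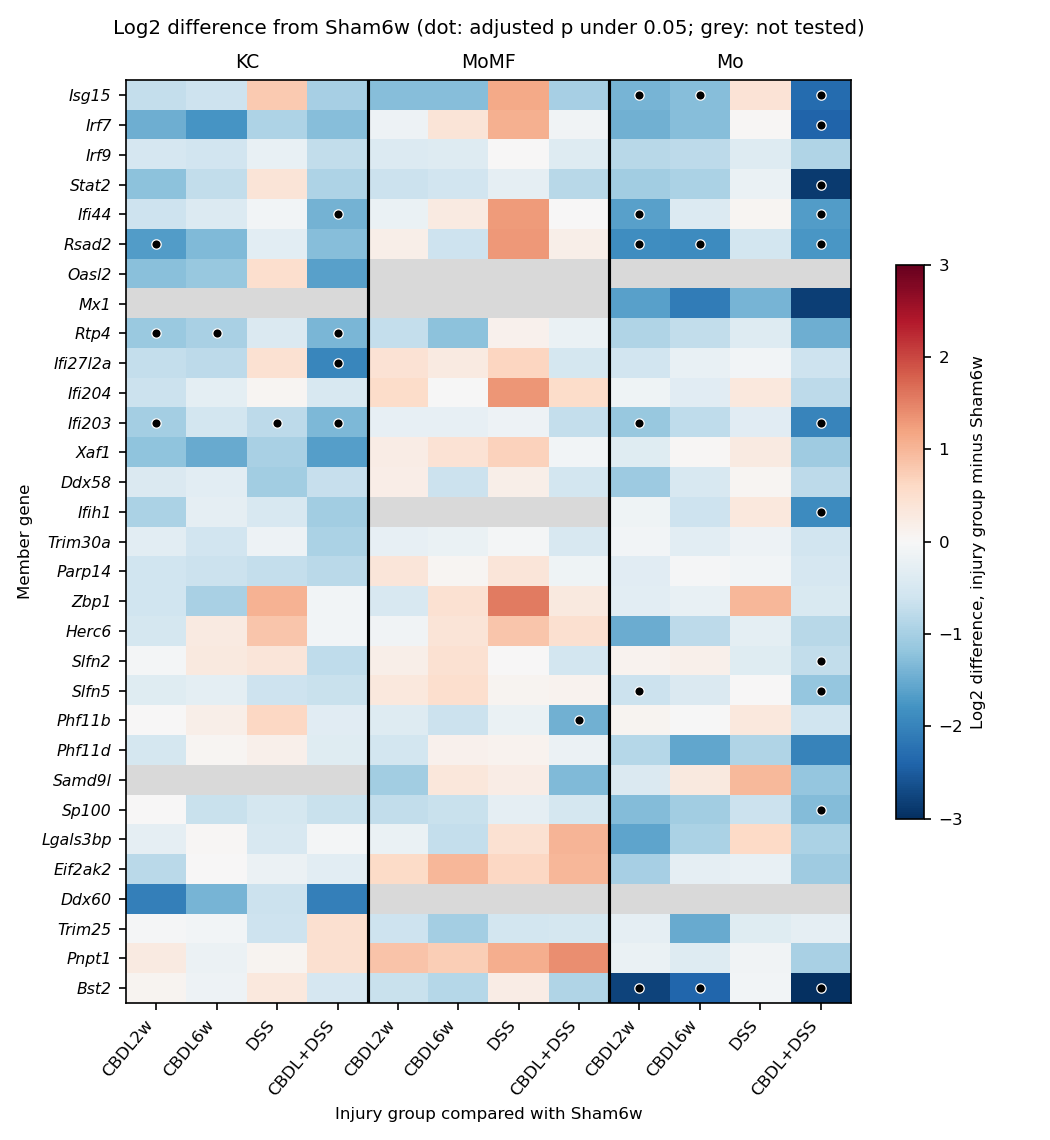
Log2 difference from Sham6w (color scale) of the genes tested (rows) in 12 comparisons of an injury with Sham6w in KC, MoMF and Mo (columns), with a dot where the adjusted p was under 0.05. Most cells of the ligated groups in KC and Mo are on the low side, and the dots gather in Mo after CBDL+DSS.

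After colitis without ligation 1 gene of the list passed in KC and none in MoMF or Mo. In Mo none of the 29 genes passed after DSS by limma (1.59% of all genes passed), and edgeR called none. None of the 29 had an unadjusted p under 0.05, against 1098 of all 6112 genes tested. The median difference of the 29 genes was -0.09, against -0.03 for all genes. The largest differences were -1.39 for Mx1, an antiviral GTPase, 0.99 for Zbp1, a sensor of Z-form nucleic acid that starts cell death, and 0.97 for Samd9l. Zbp1 stood at 14.5, 17.1, 16 and 27.6 after DSS against 13.1, 10.9 and 4.47 in Sham6w, without overlap.

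In MoMF the differences after DSS were mostly positive. Of 27 genes tested 21 had a positive difference, with a median of 0.23 against 0.06 for all genes. None passed by limma (2.07% of all genes passed), and edgeR called none. Of the 27 genes 3 had an unadjusted p under 0.05, against 1081 of all 6079 genes. The largest differences of the 27 genes were 1.56 for Zbp1, 1.32 for Ifi204, a DNA sensor encoded on chromosome 1 as Ifi203 is, and 1.31 for Rsad2 (adjusted p = 0.2, 0.16 and 0.296). Isg15 stood at 34.4, 49.9, 43.5 and 42.7 after DSS, against 19.8, 14.1 and 23.6 in Sham6w, and Ifi44 at 38.8, 45.5, 22.7 and 25.2 against 9.91, 15.2 and 12.8. For both genes every DSS library was above every control, without a call. Without the shallow Sham6w library 22 of the 27 differences were positive, with a median of 0.26, and still none passed. Without the filter on low values 28 of all 42 differences were positive, with a median of 0.149 against 0.000 for all genes, and none passed. The share of positive differences among all genes was not counted. Endothelial markers in MoMF took 0.146 to 0.17% of the reads after DSS against 0.0278 to 0.0536%, and patrolling monocyte markers 0.228 to 0.265% against 0.161 to 0.203%. Macrophage markers were below every control after DSS, at 0.177 to 0.233% against 0.294 to 0.331%, as were Kupffer cell markers, at 0.0218 to 0.0328% against 0.0548 to 0.196%, and plasmacytoid markers other than Bst2, at 0.0241 to 0.0615% (Klk1 at 0) against 0.0784 to 0.108%. The plasmacytoid marker Siglech overlapped, at 0 to 17.7 after DSS against 0 to 13.8. The part of these cells in the values was not tested.

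In KC only Ifi203 passed after DSS (4.55% of all genes fell), at 408, 265, 263 and 303, and it fell by 0.78 ± 0.19 (1.72-fold lower, adjusted p = 0.0163) with 1 library inside the control range. The call was lost without the DSS library of replicate 2 or the Sham6w library of replicate 3, and the count was 2 without the Sham6w library of replicate 4. Differences of -1.04 for Ddx58, the RNA sensor RIG-I, 1.04 for Zbp1 and -0.98 for Xaf1 did not pass. Zbp1 stood at 9.83, 10, 11.9 and 13.9 against 7.45, 3.03, 3.97 and 6.64, and all DSS libraries were above all controls.

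The study next asked how advanced injury differs from its onset. Between CBDL6w and CBDL2w limma called none of the genes in KC, MoMF or Mo, where 0%, 0.0823% and 0% of all genes tested passed. An unadjusted p under 0.05 was found for 2, 1 and 2 of the listed genes. Among all genes tested it was found for 449 of 6159, 391 of 6079 and 404 of 6112. edgeR also called none of the listed genes. The largest differences were 0.81 for Eif2ak2, the kinase PKR, 0.80 for Herc6, a ligase that attaches Isg15, and 0.69 for Ifih1 in KC, 1.37 for Samd9l, 0.93 for Zbp1 and -0.85 for Ddx58 in MoMF, and -1.25 for Trim25, 1.23 for Ifi44 and 0.74 for Samd9l in Mo.

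Colitis on top of advanced ligation was set against the same ligation alone. In KC 2 genes fell (0.796% of all genes fell), and the median difference was -0.35 for the 29 genes and 0.08 for all genes. Slfn2 stood at 18.8, 11.6, 8.55 and 12.5 after CBDL+DSS against 30.4, 26, 19.2 and 35.2 after CBDL6w and fell by 1.07 ± 0.27 (adjusted p = 0.0453). Ifi203 fell by 0.80 ± 0.19 (adjusted p = 0.0362), with all CBDL+DSS libraries at or under 251 and all CBDL6w libraries at or above 330. Ifi27l2a, at -1.16, did not pass (adjusted p = 0.105). The count was 1 without the CBDL6w library of replicate 1 or 3, and 0 without the CBDL6w library of replicate 2 or 4 or the CBDL+DSS library of replicate 2, 4+5 or 6.

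In Mo the only call between CBDL+DSS and CBDL6w was again Ifi203 (0.278% of all genes fell), at 72.5, 71.6, 130 and 74.1 against 218, 206, 177 and 188. It fell by 1.22 ± 0.23 (2.33-fold lower, adjusted p = 0.0206), and of the other genes Stat2 at -1.92 and Samd9l at -1.46 differed most without passing. The median difference of the 29 genes was -0.59, against 0.04 for all genes. Of the 29 genes 11 had an unadjusted p under 0.05, against 704 of all 6112 genes tested. The call was lost without the CBDL6w library of replicate 2 or the CBDL+DSS library of replicate 1, 2 or 6, and the count was 2 without the CBDL6w library of replicate 3.

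In MoMF the only gene that rose in any injury comparison was Lgals3bp, a secreted glycoprotein that binds galectins (2.09% of all genes rose in this comparison). It stood at 30.3, 27.5, 36.2 and 18.4 after CBDL+DSS against 11.2, 4.52, 12.8 and 4.74 after CBDL6w and rose by 1.73 ± 0.42 (3.32-fold higher, adjusted p = 0.0192), without overlap. Samd9l at -1.66 (adjusted p = 0.0534) and Rtp4 at 1.03 did not pass. The call was lost without the CBDL6w library of replicate 4 or the CBDL+DSS library of replicate 1, 2 or 3, and without the CBDL6w library of replicate 1 the count was 2. Macrophage markers took 0.446 to 0.561% of the MoMF reads after CBDL+DSS, against 0.248 to 0.336% after CBDL6w, and patrolling monocyte markers 0.0783 to 0.0935% against 0.11 to 0.166%, both without overlap, and their part was not tested.

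Whether colitis acts differently in ligated livers was tested as the effect of colitis with ligation minus that without. In KC only Slfn2 passed, downward (2.27% of all genes did), with a difference of -1.43 ± 0.38 (adjusted p = 0.0293), and Ifi27l2a at -1.62 (adjusted p = 0.056) and Irf7 at 1.40 did not. Slfn2 stood at 33.1, 33.8, 28.4 and 20.8 after DSS against 28.7, 18.2, 22.8 and 19.1 in Sham6w, where the groups overlapped. The count was 0 without the DSS library of replicate 1 or 2, the CBDL+DSS library of replicate 2 or 4+5, or the Sham6w library of replicate 2 or 4, and it was 2 without the CBDL6w library of replicate 1 or 3. In MoMF (2.09% of all genes passed) and Mo (0.311%) limma and edgeR called none of the listed genes. An unadjusted p under 0.05 was found for 2 and 7 of them, against 945 of all 6079 and 907 of all 6112 genes. Without the shallow Sham6w library the MoMF numbers for the listed genes were 0 called and 5 under 0.05. The largest differences were -1.87 for Samd9l, -1.73 for Zbp1 and -1.55 for Ifi44 in MoMF, and -2.42 for Samd9l, -1.71 for Stat2 and -1.61 for Ifih1 in Mo.

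The cell types were then compared in control livers. KC exceeded MoMF in 11 of 31 genes tested, against 9.11% of all 7555 genes, and none was lower in KC. Among sensors, Ifih1 was higher by 2.73 ± 0.65 (6.65-fold, adjusted p = 0.00196), and Ddx60 was higher by 2.12. Both genes were too low to be tested within MoMF. Ifih1 stood at 0, 0 and 4.91 in MoMF against 11.7, 12.7, 4.96 and 19.1 in KC. Ddx60 stood at 2.17 to 17.7 in MoMF against 19.9 to 40 in KC. The Ddx60 call was lost in 6 of 7 fits with a library left out, and edgeR did not make it (adjusted p = 0.195). Rsad2 stood at 43.6, 23.6, 45.7 and 29.9 in KC against 4.95, 3.26 and 6.87 in MoMF and was higher by 2.60 ± 0.54 (6.07-fold, adjusted p = 0.0004). Irf7, at 77.7, 97.6, 54.6 and 52.3 in KC against 44.6, 5.43 and 5.89 in MoMF, was higher by 2.45 ± 0.72 (5.48-fold, adjusted p = 0.0128). Eif2ak2, Rtp4, Parp14 (a mono-ADP-ribosyltransferase) and Lgals3bp were higher by 1.63, 1.56, 1.46 and 1.38, and Ifi203, Ifi204 and Slfn5 also passed. Of the 11, the groups overlapped for Ifi203 alone. Without the shallow MoMF library 7 genes passed, as they did without the KC library of replicate 1, 2 or 3, and Rsad2, Ifih1, Parp14 and Slfn5 passed without each library. B cell markers took 0.0219 to 0.136% of these MoMF reads against 0.000702 to 0.00214% in KC, and T and NK cell markers 0.0126 to 0.0528% against 0 to 0.00105%. Plasmacytoid markers other than Bst2 took 0.0784 to 0.108% (Klk1 at 0) against 0.0414 to 0.0651%. Siglech overlapped, at 0 to 13.8 in MoMF against 0 to 7.28 in KC. The 10 hepatocyte markers were higher in KC, at 0.0605 to 0.108% against 0.016 to 0.0349%. The part of these cells in the differences was not tested.

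KC exceeded Mo in Ddx60 by 2.35 ± 0.76 (adjusted p = 0.025), Lgals3bp by 1.59 ± 0.46 (adjusted p = 0.0109) and Rtp4 by 1.45 ± 0.51 (adjusted p = 0.0395), where 7.48% of all genes were higher. Ddx60 was too low to be tested within Mo, at 10.5, 2.41 and 2.24 in the Sham6w libraries. Bst2 was lower in KC, with a difference of -1.17 ± 0.38 (adjusted p = 0.0272), where 8.54% of all genes were lower, at 30.9, 21.2, 17.9 and 17.4 in KC against 30.2, 54.3 and 71.6 in Mo, and 1 KC library exceeded the lowest Mo library. Plasmacytoid markers other than Bst2 took 0.0414 to 0.0651% of the reads in these KC libraries against 0.16 to 0.221% in Mo, Siglech stood at 0 to 7.28 against 47.2 to 91.8, endothelial markers took 0.0333 to 0.0637% against 0.224 to 0.389%, and their part in the difference of Bst2 was not tested. The 4 calls became 2 without the KC library of replicate 2 or 3 and 1 without the Mo library of replicates 3+6 or of replicate 4. MoMF were lower than Mo in 4 genes (4.21% of all genes were lower), with differences of -2.46 ± 0.69 for Ifih1 (adjusted p = 0.0206), -2.44 ± 0.58 for Rsad2 (adjusted p = 0.00536), -1.44 ± 0.27 for Slfn5 (adjusted p = 0.000367) and -1.36 for Ifi204. Rsad2 stood at 4.95, 3.26 and 6.87 in MoMF against 35.4, 42.2 and 19 in Mo, and Ifih1 alone overlapped. Ifih1 was too low to be tested within MoMF, and edgeR did not call its difference (adjusted p = 0.194). Without the shallow MoMF library the count was also 4, but Ifih1 and Ifi204 were lost and other genes of the list took their place, and the count was 2 without the Mo library of replicates 1+2+5 or of replicate 4.

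**Figure D5:**
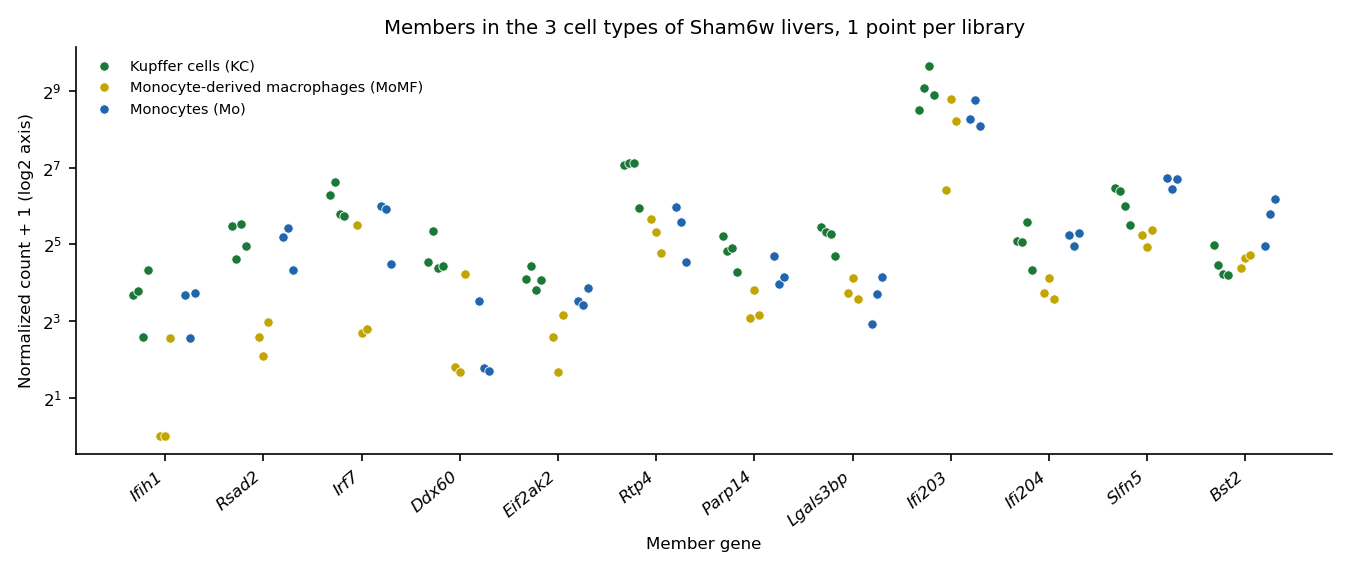
Normalized count plus 1 on a log2 axis (vertical) in the Sham6w libraries of KC, MoMF and Mo for the 11 genes higher in KC than in MoMF and for Bst2 (horizontal), with a point per library. Rsad2 in MoMF lies apart from its level in both other cell types, and 2 of 3 Bst2 points of Mo lie above those of both other cell types.

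Whether an injury moved a gene differently in 2 cell types was tested as the difference of the effects in 12 comparisons, which were added after the data were seen. For Bst2 the effect in Mo minus that in KC was -2.85 after CBDL2w (adjusted p = 0.000601, with 1.46% of all genes called lower), -2.23 after CBDL6w (adjusted p = 0.015, 1.27%) and -2.58 after CBDL+DSS (adjusted p = 0.00439, 0.609%), a larger fall in Mo each time. In KC, Bst2 stood at 27.9, 17.2, 27.5 and 19 after CBDL2w and at 12.5, 13.3, 26.4 and 10.7 after CBDL+DSS, against 30.9, 21.2, 17.9 and 17.4 in Sham6w, with overlap in both. The calls after CBDL2w and CBDL+DSS held without each library, and that after CBDL6w was lost without the Mo Sham6w library of replicates 3+6 (adjusted p = 0.0548) or of replicate 4 (adjusted p = 0.0598).

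The effect on Bst2 in Mo minus that in MoMF was -2.11 after CBDL2w (1.19% of all genes were called lower) and -2.17 after CBDL+DSS (1.47%), and after CBDL+DSS this difference was -3.35 for Ifih1 and -1.29 for Slfn5. These 4 calls rested on few libraries: they were lost in 7, 4, 9 and 11 of 14 fits with a library left out, and all 4 were lost without the shallow MoMF Sham6w library. Ifih1 was too low to be tested within MoMF, at 0, 0 and 4.91 in the Sham6w libraries. No other gene of the list passed in these 12 comparisons, so a call in Mo and none in KC or MoMF for the other genes does not show that the cell types differ. Scaling the libraries to equal totals moved the median of all genes by more than 0.1 for the difference between Mo and KC after CBDL2w, to -0.21 in place of -0.09, and Bst2 kept its call.

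The 11 scarce genes reached the level of 10 in at most 2 libraries each and were tested in no cell type. Their sum was 7.16 to 14.5 in Mo after CBDL+DSS, 8.11 to 16.7 after CBDL2w, 3.84 to 21.5 after CBDL6w and 22.1 to 35.9 after DSS, against 31.3 to 37.4 in Sham6w. All ligated Mo libraries were below all controls. In KC the sums were 17.1 to 29.1 after CBDL+DSS, 9.44 to 26.6 after CBDL2w, 11.5 to 26.4 after CBDL6w and 20.1 to 43.8 after DSS against 23.0 to 41.5, with overlap in each. In MoMF the sums were 6.97 to 14.5 after CBDL2w and 9.48 to 14.4 after CBDL6w, below every control, and 19.9 to 25.6 after DSS and 7.35 to 25.6 after CBDL+DSS, with overlap, against 18.7 to 32.2 in Sham6w. Of the named effectors, Oasl2, an oligoadenylate synthetase relative, was near its detection limit, at no more than 5.76 in any ligated KC library and 1.99 to 10.7 in KC controls.

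The rest of the pathway was read from lists of other genes, chosen with earlier results of these data known. Of the interferons, Ifnb1 was at 0 in every KC library. The receptor genes Ifnar1 and Ifnar2 passed in no comparison between injuries, and Ifnar2 averaged 76.3 in KC after CBDL+DSS against 96 in Sham6w. Ifngr1, a receptor subunit for interferon gamma, fell by 1.35 in KC after DSS (4.55% of all genes fell). Of 11 signalling factors, 3 fell in Mo after CBDL2w (Irf1 by 1.81, Irf8 by 1.04 and Jak1 by 0.86), 1 after CBDL6w (Jak1) and 2 after CBDL+DSS (Irf8 by 1.27 and Jak1 by 0.82), and none rose there. The background there was 5.71%, 5.33% and 6.07% of all genes fallen. In KC, 1 fell after CBDL2w (Irf1 by 1.05, with 1.62% of all genes fallen), 2 rose after DSS (Stat3 and Irf1, with 3.34% of all genes risen) and 1 rose after CBDL+DSS (Stat3, 1.61%). In MoMF none passed after ligation, and Irf1 rose by 1.77 after DSS (1.27% of all genes rose). Of 14 genes of nucleic acid sensing and its adaptors, the only call between an injury and Sham6w was Tlr7, a receptor for single-stranded RNA, which fell by 1.81 in KC after DSS. Socs3, a feedback inhibitor of cytokine signalling, rose after CBDL+DSS in all 3 cell types, by 1.74 in KC, 1.17 in MoMF and 0.83 in Mo, where 1.61%, 4.61% and 7% of all genes rose. It also rose by 1.44 in MoMF after CBDL2w (1.69%), and Irf2bp2, of the same list, fell by 0.96 in KC after DSS. Of 4 ISGylation genes tested, the only call between an injury and Sham6w in any cell type was that of Isg15 in the 3 ligated groups of Mo, the same calls as given above.

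Other interferon-induced genes, outside the list of 42, also changed. Of 39 such genes, 6 of 31 tested rose in KC after DSS, 7 of 29 in MoMF and 2 of 32 in Mo, where 3.34%, 1.27% and 1.05% of all genes rose, and none fell. Gbp2, a guanylate-binding protein of interferon gamma defence, rose by 2.75 in KC, 3.68 in MoMF and 2.59 in Mo, and Igtp, an immunity-related GTPase, rose by 2.57 in KC and 3.94 in MoMF. Ligation gave 2 falls of 31 in KC after CBDL2w (Epsti1 and Ifitm3), 2 after CBDL6w (Trim30d and Ifitm3) and 2 after CBDL+DSS (Ifitm3 and Ly6e), where 1.62%, 2.03% and 1.7% of all genes fell, and in Mo 0 of 32 after CBDL2w and CBDL6w and 2 after CBDL+DSS (Igtp and Cxcl10), where 6.07% of all genes fell. In MoMF 1 of 29 rose after CBDL2w (Tdrd7, with 1.69% of all genes risen), 1 fell after CBDL6w (Ly6e, 0.806% fallen), and 2 rose (Tdrd7 and Igtp, 4.61% risen) and 3 fell (Zc3hav1, Ifitm3 and Ly6e, 5.2% fallen) after CBDL+DSS. Whether the 42 genes and these differ in their response was not tested.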

How the data were processed

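Per the labels' protocols, a 3' tag kit that adds unique molecular identifiers was used. The submitters' processing notes name STAR 2.7.5b, RSEM 1.3.1, UMI-tools 1.0.1, Trimmomatic 0.39 and 0.39-1, DESeq2 without a version and the build GRCm38.p6. The deposited signal is 1 normalized count per gene and library, gene counts that the authors divided by a size factor per library. The smallest step of a library's column recovered its reads: 100% of the values came out whole within 0.01, and size factors were 0.404 to 1.675. GENCODE M21 named 25272 of 25307 gene identifiers and left 35 unnamed. The 9 libraries with joined replicate numbers counted once each. Replicates correlated at 0.807 to 0.930 across genes, and the chi-square of every pair exceeded counting error, at 2.81 or more per degree of freedom. Unique identifiers limit copies of 1 molecule but do not remove them, so totals bound counting error only.

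The genes and lists were chosen with earlier results of these data known. limma 3.58.1 in R 4.3.3 (trend, robust, two-sided) was fitted on log2(normalized count + 1): a fit for each cell type took in its 5 injury groups, and a fit of all 58 libraries served to compare cell types. A gene was tested where 3 or more libraries reached 10, and 29 of the 42 listed genes were tested in KC, 27 in MoMF and 29 in Mo. Benjamini-Hochberg adjustment ran over all genes of a comparison. Per comparison the genes called were named, with error and p for the first 3, and otherwise the 3 largest differences. Values per library are shown for a fixed set of the genes and for those most often called. Alternatives were a pseudocount of 5, no filter, equal totals, a block for the replicate number, edgeR 4.0.16 (quasi-likelihood test) on the recovered reads, and each library left out. 1 gene of the pathway lists is not reported by name here.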

Additional observations from a re-analysis of the deposited data

Results flagged for a closer look

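Libraries that stood apart from the other 3 of their group were looked for in 130 combinations of gene and group, and 4 were found, where chance alone flags about 1 of 20. Bst2 stood at 26.4 in the KC CBDL+DSS library of replicates 4+5, against 10.7, 12.5 and 13.3 in the others. Oasl2 stood at 1.51 in the MoMF CBDL6w library of replicate 2 and at 0 in the others. That library held 183043 reads and Oasl2 was too low to be tested in MoMF, so this value rests on very few reads. Rsad2 stood at 18.9 in the Mo CBDL2w library of replicate 1, against 5.07, 5.28 and 6.31. Ifi203 stood at 130 in the Mo CBDL+DSS library of replicates 4+5, against 71.6, 72.5 and 74.1.

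Effects that differed by a test of the difference were those of colitis on Slfn2 in KC (with ligation minus without, -1.43) and the 7 differences between cell types, added after the data were seen. For Bst2 the effect in Mo minus that in KC was -2.85 after CBDL2w, -2.23 after CBDL6w and -2.58 after CBDL+DSS, and the effect in Mo minus that in MoMF was -2.11 after CBDL2w and -2.17 after CBDL+DSS. After CBDL+DSS the effect in Mo minus that in MoMF was -3.35 for Ifih1 and -1.29 for Slfn5.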

How the results depend on the processing

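None of the 54 calls of single genes turned its direction in any alternative. Under a pseudocount of 5 the count of genes called was 3 in KC for CBDL6w against Sham6w and 2 in MoMF for CBDL+DSS against CBDL6w. Without the filter on low values it was 0 in KC for CBDL6w against Sham6w, for CBDL+DSS against CBDL6w and for the colitis effect with minus without ligation, 0 in MoMF for CBDL+DSS against Sham6w and against CBDL6w, and 2 for Sham6w KC against Mo. With equal totals it was 0 in KC for CBDL6w against Sham6w and 2 for the colitis effect with minus without ligation. With edgeR it was 2 in KC for both of these, 0 in MoMF for CBDL+DSS against Sham6w, 2 there for CBDL+DSS against CBDL6w, and 2 for Sham6w MoMF against Mo. Counts not listed so far also moved, by smaller proportions. In Mo for CBDL+DSS against Sham6w the 11 became 8 without the filter and 9 with equal totals. In Mo for CBDL2w the 6 became 8 with a pseudocount of 5, 7 with equal totals and 5 with edgeR. For Sham6w KC against MoMF the 11 became 12 with a pseudocount of 5, 8 without the filter, 9 with equal totals and 10 with edgeR. Of the 54 calls of single genes, 51 held with a pseudocount of 5, 47 with equal totals, 47 with edgeR and 36 without the filter. The cause of these changes was not tested. Of the differences between cell types added after the data were seen, those of Bst2 between Mo and KC held for CBDL2w and CBDL+DSS in every setting, and that of Bst2 between Mo and MoMF after CBDL2w was lost without the filter (adjusted p = 0.057) and with edgeR (0.0597).

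With each library left out in turn, the counts ran from 1 to 3 in KC for CBDL2w, 0 to 2 for CBDL6w, 0 to 2 for DSS and 4 to 6 for CBDL+DSS against Sham6w, from 0 to 2 for CBDL+DSS against CBDL6w and from 0 to 2 for the colitis effect with minus without ligation. In MoMF they ran from 0 to 1 for CBDL+DSS against Sham6w and from 0 to 2 for CBDL+DSS against CBDL6w. In Mo they ran from 3 to 7 for CBDL2w, 1 to 4 for CBDL6w and 7 to 9 for CBDL+DSS against Sham6w, and from 0 to 2 for CBDL+DSS against CBDL6w. In Sham6w they ran from 7 to 12 for KC against MoMF, 1 to 3 for KC against Mo and 2 to 4 for MoMF against Mo. The other comparisons gave counts of 0 throughout.

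With the replicate number as a replicate block, each count was that without the block, for example 11 in Mo for CBDL+DSS against Sham6w, and all 54 single calls held. Libraries with the same number deviated together little or not at all (correlations of at most 0.095, with block correlations of -0.028 in KC, 0.002 in MoMF and -0.013 in Mo, and 0.046 in the fit of all libraries). In the fit of all libraries their median correlation was 0.035, against -0.011 for other pairs. The numbers were not taken to pair samples, but such small values do not show that pairing is absent.

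The share of higher genes among all calls moved with equal totals in KC, to 58.6% from 40.1% for CBDL2w, to 49.5% from 37.5% for CBDL6w and to 61.9% from 42.4% for DSS against Sham6w, and to 49.9% from 62.3% for the colitis effect with minus without ligation. Depth limits the scarce genes most: at 118687 to 521954 reads per library, 11 of the 42 genes were too low to test and a missing call does not show that a gene was stable.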
